A study of Mus musculus with 4 samples.

Results

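The genes described here were those to which the PRDM6 peak list assigned 10 or more peaks. They were chosen by counting the rows of each gene ID in the authors' peak annotation, so the number of peaks selected them and is given as a description with no test. The rule held for 178 of the 5246 genes with a peak (3.39%), and these 178 genes took 2338 of the 13977 peaks (16.7%, 95% Wilson interval 16.1 to 17.4%). PRDM6 belongs to the PR domain proteins, carries zinc fingers and is made in smooth muscle cells (SMCs). The study proposes that it contacts DNA directly, perhaps through these fingers, or is brought there within a larger complex. The data came from primary mouse outflow tract SMCs, infected with a lentivirus that made FLAG-tagged PRDM6, and the 4 libraries were 2 anti-FLAG immunoprecipitations (PRDM6 ChIP) and 2 Input libraries of the same infected cells. The SMCs came from embryos, and the study gives different embryonic days for them in its results and its methods. Its methods describe outflow tract SMCs from embryos with floxed Prdm6 alleles. The tagged protein was added to any PRDM6 of the cells' own, and its level beside that is not given. No library came from uninfected cells, and the study describes the immunoprecipitations both as taken from a single sample and as independent replicates. The Input libraries were used by the authors to call peaks and left no other value, and sequencing depth is not known from the peak list, so no Input value can be set beside a PRDM6 ChIP value.

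A transcription factor peak is a stretch of chromatin recovered more often with the antibody than in the input, and it can lie at the promoter of a gene, in an intron, or far outside it in an enhancer. The annotation gave each peak to the gene with a near transcription start site (TSS), so a gene could gain many peaks from closely packed sites or from a long stretch of sequence in which no other start was closer. Assignment by distance does not show that a peak acts on that gene. Each peak has a −log10 p-value from each replicate, called first-listed and second-listed because the list names them only by order, and its own −log10 p is the smaller of the 2. The irreproducible discovery rate (IDR) ranks how well both replicates placed the peak, and the scaled score of the list runs from 48 to 1000, where a score of 540 marks a global IDR of 0.05 and one of 830 marks 0.01.

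Summit sequences of strong peaks of 8 of these genes are printed first, chosen because they hold one of a pair of motifs, so they are examples of those letters and not of the peaks in general. Each one is 201 bp of the plus strand of GRCm38 (mm10) centred on the summit. Capitals mark TGACTCA or its reverse complement TGAGTCA, the letters bound by AP-1 dimers of Fos and Jun proteins, and GGAATG or its reverse complement CATTCC, the letters bound by the TEAD partners of YAP and TAZ. Both strands were searched, the motifs do not share letters in these windows, and genes from a fixed rule on names were taken by the strength of a summit that held one of them. Of the 18 peaks at least as strong as the weakest one printed, 10 are not shown. Of those 10, 8 held neither motif, among them the second strongest peak of the 178 genes, in the first intron of Cald1, and 2 (Pappa and Tnfsf18) held one but belong to genes outside that rule. The stretches are chr13:16670364-16670564 for B230303A05Rik, chr5:29864373-29864573 for Dnajb6, chr15:62287298-62287498 for Pvt1 and chr1:10898874-10899074 for Prex2.
B230303A05Rik: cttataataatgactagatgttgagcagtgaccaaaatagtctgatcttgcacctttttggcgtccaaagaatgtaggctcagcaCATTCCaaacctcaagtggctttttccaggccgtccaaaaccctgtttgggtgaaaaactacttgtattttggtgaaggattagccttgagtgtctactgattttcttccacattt
Dnajb6: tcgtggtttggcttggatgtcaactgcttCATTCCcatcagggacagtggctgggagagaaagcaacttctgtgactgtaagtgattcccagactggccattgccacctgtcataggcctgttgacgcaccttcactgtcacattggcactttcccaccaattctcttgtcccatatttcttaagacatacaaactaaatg
Pvt1: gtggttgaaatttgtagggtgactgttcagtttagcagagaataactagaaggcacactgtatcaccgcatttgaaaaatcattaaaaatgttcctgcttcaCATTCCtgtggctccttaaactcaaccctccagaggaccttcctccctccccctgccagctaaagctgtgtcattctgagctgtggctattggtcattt
Prex2: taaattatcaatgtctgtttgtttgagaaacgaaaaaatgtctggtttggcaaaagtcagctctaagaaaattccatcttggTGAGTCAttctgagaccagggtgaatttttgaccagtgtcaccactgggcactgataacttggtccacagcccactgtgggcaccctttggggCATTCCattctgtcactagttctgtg
The other 4 are chr5:14073258-14073458 for Sema3e, chr10:98292120-98292320 for Gm8633, chr17:75110613-75110813 for Ltbp1 and chr2:137375342-137375542 for Jag1.
Sema3e: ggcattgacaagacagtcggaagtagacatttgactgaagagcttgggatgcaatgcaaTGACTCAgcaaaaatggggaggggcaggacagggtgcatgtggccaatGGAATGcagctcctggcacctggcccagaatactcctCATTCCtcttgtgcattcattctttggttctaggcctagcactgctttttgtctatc
Gm8633: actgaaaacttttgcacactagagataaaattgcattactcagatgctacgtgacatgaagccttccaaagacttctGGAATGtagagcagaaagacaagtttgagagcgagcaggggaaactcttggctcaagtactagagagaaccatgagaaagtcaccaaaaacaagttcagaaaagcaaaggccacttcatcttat
Ltbp1: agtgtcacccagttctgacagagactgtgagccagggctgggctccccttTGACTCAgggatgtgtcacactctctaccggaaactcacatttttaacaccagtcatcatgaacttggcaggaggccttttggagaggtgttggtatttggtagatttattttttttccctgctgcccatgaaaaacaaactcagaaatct
Jag1: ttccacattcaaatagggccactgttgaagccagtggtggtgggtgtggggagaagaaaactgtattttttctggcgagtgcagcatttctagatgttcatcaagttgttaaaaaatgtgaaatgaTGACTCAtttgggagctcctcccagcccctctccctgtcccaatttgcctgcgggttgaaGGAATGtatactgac

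None of these 8 summits lay at a promoter. Those of Pvt1, Sema3e and Ltbp1 were in introns 5, 1 and 3, and the others were distal intergenic. The B230303A05Rik peak had the highest matched −log10 p of the 2338 peaks, with 32.3 in the first-listed and 28.5 in the second-listed replicate, and lay 647 kb upstream of the TSS of this U1 small nuclear ribonucleoprotein pseudogene. The Dnajb6 peak reached 23.2 and 22.1, 98.8 kb downstream of the start of this Hsp40 chaperone gene. The Pvt1 peak reached 26.3 and 21.98, 64.1 kb into this long non-coding RNA gene. The Prex2 peak reached 21 and 26.6, 93.9 kb upstream of this Rac exchange factor gene, and its AP-1 letters began 18 bp before the summit. Sema3e, a secreted semaphorin, had 21 and 19.9 in its first intron, with AP-1 letters and a pair of TEAD matches in the window. The Ltbp1 peak had 16.85 and 24.3, and the Jag1 peak, 259 kb upstream of this Notch ligand gene, had 16.7 and 22.1. All 8 had scores of 1000, the top of the scale.

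Over all peaks of the 178 genes, AP-1 letters lay within 100 bp of the summit in 304 of 2338 (13%, 11.7 to 14.4%), beside 14.3% of all peaks. In windows of the same total length centred 1000 bp away they lay in 3.68% of these peaks (3.96% of all peaks). TEAD letters lay at 18.7% of the summits (17.2 to 20.4%), beside 19% of all peaks and 11.1% of the flanks of these peaks. At least 1 summit with AP-1 letters was found for 145 of the 178 genes (81.5%) and at least 1 with TEAD letters for 167 (93.8%), beside 28.9% and 34.5% of the 5068 genes with fewer peaks. Genes with more peaks have more chances to hold one, and per peak the shares were near the background, so these counts are not a result about the genes. In the promoter peaks of these genes AP-1 letters were found at 14 of 308 summits (4.55%, 2.73 to 7.48%), beside 8.33% of promoter peaks in the whole list. The share was 5.18% (3.746 to 7.115%) in genes with 5 to 9 peaks, 7.93% in genes with 2 to 4 and 13.9% in genes with 1. The low share was thus not particular to the 178 genes. A match of letters describes the sequence and does not show that a factor was bound.

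The number of peaks per gene fell off steeply over the whole list. Of the 5246 genes, 2443 had 1 peak, 2018 had 2 to 4 and 607 had 5 to 9. Among the 178, 48 genes had exactly 10 peaks, 88 had 11 to 14, 29 had 15 to 19 and 13 had 20 or more, and those 13 genes alone took 313 peaks. On the edge of the rule, the 48 genes with 10 peaks had a median span of 253 kb and 29.0% of their peaks beyond 100 kb of the TSS, and the 45 genes with 9 peaks had 261 kb and 25.2%. The median −log10 p of their peaks was 5.096 with 10 peaks and 5.696 with 9. Genes just outside included Col1a2, Tnc, Gli3, Mecom and Fzd1, and genes just inside included Nfia, Zfpm2, Kitl and Acvr2a.

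**Figure D1:**
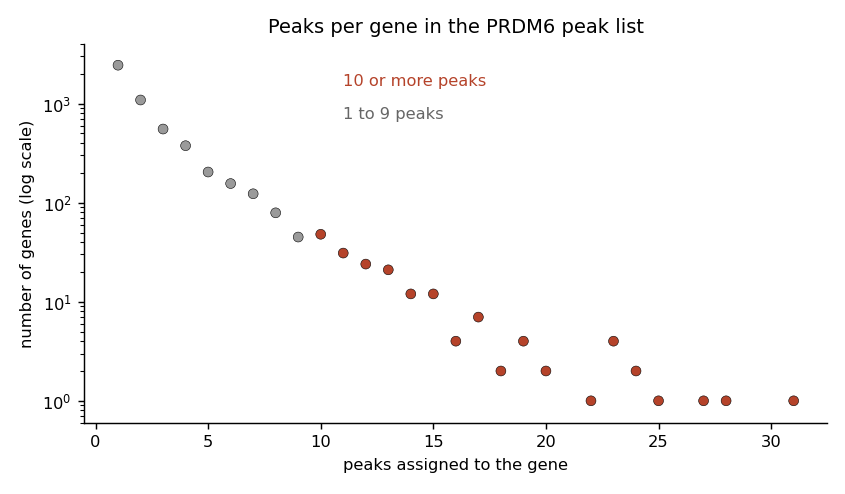
Number of genes (y, log scale) with each number of assigned peaks (x), 1 point per peak number that occurs. Points at 10 or more peaks hold the 178 genes, and the counts run from 48 genes at 10 peaks down to 1 gene, Gm20125, at 31.

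The gene with the most peaks was Gm20125, a predicted long non-coding gene on chromosome 10, with 31. Its peaks spanned 867 kb from chr10:16498381 to 17365780, and 15 of them lay beyond 100 kb of its TSS. Marcks, whose product is a membrane-bound protein kinase C substrate that binds actin, had 28 peaks over 537 kb. Of the Marcks peaks, 26 lay upstream and 24 lay beyond 100 kb, while 1 overlapped the TSS. Its strongest peak, 464 kb upstream, had a −log10 p of 13.9 in the first-listed and 10.9 in the second-listed replicate.

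Mbnl1, a splicing regulator of the muscleblind family, had 27 peaks over 533 kb, with 6 at promoters and 9 beyond 100 kb. Tbl1xr1, a subunit of the NCoR and SMRT co-repressor complexes, had 25 peaks, of which 24 were upstream and 20 beyond 100 kb. When peaks were reassigned to the nearest start in a combined set of GENCODE and deposited starts, 10 of the 25 stayed with Tbl1xr1. The ephrins Efna5 and Efnb2, ligands of Eph receptors in cell sorting and vessel assembly, had 24 peaks each, and 20 of each lay beyond 100 kb. The Efna5 peaks spanned 1681 kb and the Efnb2 peaks 1754 kb. Only 4 of the Efnb2 peaks stayed with Efnb2 when the combined starts were used, and all 24 stayed with Efna5.

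The non-coding genes 1700016G22Rik and 1700019E08Rik and the coding gene Flrt2 had 23 peaks each, as had the non-coding gene Gm12610. All 23 peaks of 1700016G22Rik lay downstream, 11.1 to 608 kb away, while 1700019E08Rik had 12 upstream and 11 downstream. Flrt2, a membrane ligand of unc5 receptors, had 18 of 23 upstream over 955 kb. The Gm12610 peaks were far more compact, with 23 peaks in 180 kb and a median gap of 2.27 kb between summits.

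Adamts5, a protease of aggrecan and versican, had 22 peaks, 17 of them upstream, and Asap1, an Arf GTPase activator of adhesion sites, and Zfp608, a zinc finger gene, had 20 each. Below these came Aopep, Dlc1, Ext1 and Meis1 with 19, Cdk14 and Mir100hg with 18, and B230303A05Rik, Babam2, Foxp1, Mir6344, Plxdc2, Rad51b and Tm4sf1 with 17. Ext1 polymerises heparan sulphate, Meis1 and Foxp1 are transcription factors, and Mir100hg hosts the miR-100, let-7 and miR-125b cluster. Mir100hg was the most promoter-bound of these, with 10 of 18 peaks within 3 kb of a start and 5 over one. Meis1 had 6 of 19 and Foxp1 8 of 17 within 3 kb. Rad51b had all 17 in its introns.

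**Figure D2:**
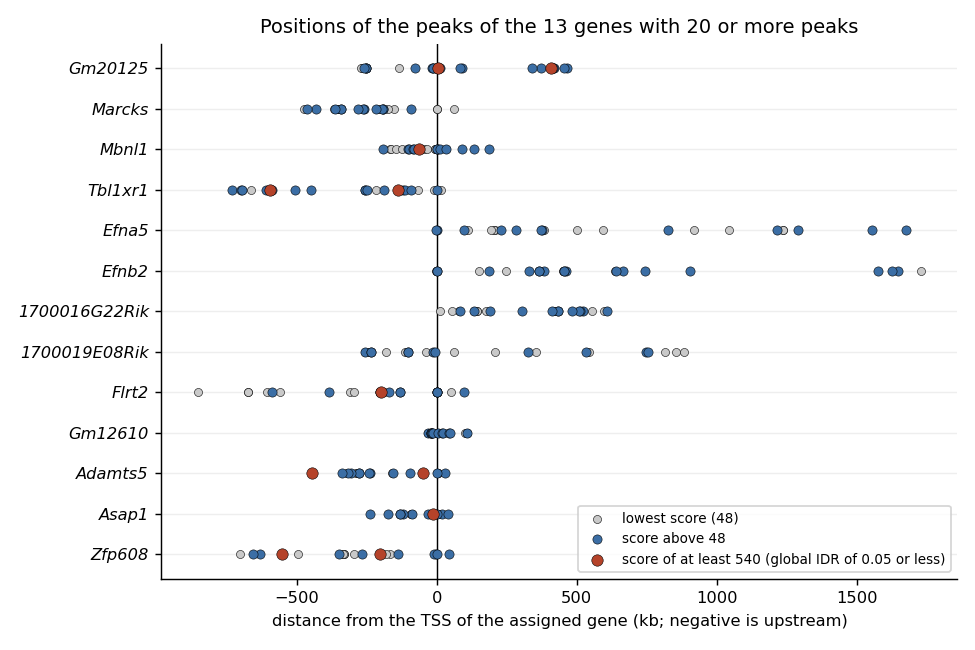
Distance in kb of every peak (1 point) from the TSS of its assigned gene for the 13 genes with 20 or more peaks, with upstream positions negative and colours for the score. Marcks and Tbl1xr1 lay mainly upstream, 1700016G22Rik, Efna5 and Efnb2 mainly downstream, and the Gm12610 peaks stayed within 108 kb.

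The peaks of the 178 genes lay far from starts. Their median distance from the TSS was 61.1 kb, beside 22.7 kb for all peaks and 10.9 kb for genes with 1 peak. Peaks beyond 100 kb made up 38.8% (36.9 to 40.8%), beside 19.3% of all peaks, 23.8% in genes with 5 to 9 peaks, 12.9% in genes with 2 to 4 and 7.25% in genes with 1. Promoter peaks, within 3 kb of a start, made up 13.2% (11.9 to 14.6%), beside 21.3% of all peaks and 28.4% in genes with 1 peak. The distance and the number of peaks come from the same assignment, so these shares are not independent of the rule. The order of the 4 groups was monotonic in both shares, upward with the number of peaks for distance and downward for promoters.

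Introns held 40.7% of the peaks (38.7 to 42.7%) and distal intergenic sequence 42% (40.02 to 44.01%), with 35.9% and 37.2% in the whole list. First introns held 268 of the 952 intronic peaks (28.2%), beside 35.2% in the whole list. Of the intronic peaks, 44 (4.62%) lay in an intron of a transcript of another gene and 89 (9.35%) in a transcript that the annotation gave no gene ID, beside 14.7% and 11.3% of intronic peaks in the whole list. Introns of another gene thus held a smaller share here than in the whole list, and the genes named next are not typical of the 178. For 4930555K19Rik, 10 of 11 peaks lay in introns of Zfpm2. For 4930412B13Rik, 8 of 12 lay in Gm13986, and for Jag1, 3 of 15 lay in Slx4ip.

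**Figure D3:**
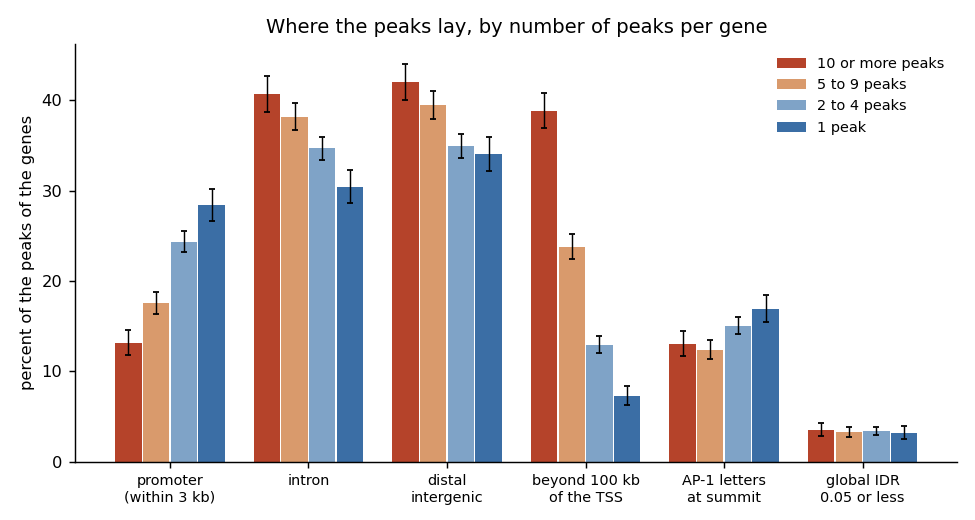
Percent of peaks in each class (y) for genes grouped by their number of peaks, with 95% Wilson intervals as bars of error over peaks. Shares beyond 100 kb ran from 38.8% in genes with 10 or more peaks to 7.25% in genes with 1, and shares at a global IDR of 0.05 or less ran between 3.19% and 3.51%.

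The genes differed widely among themselves in how their peaks were laid out. A peak at a promoter was present in 124 of the 178 genes (69.7%) and a peak over the TSS in 77 (43.3%), beside 37.65% and 15.3% of the 5068 genes with fewer peaks, while 54 had no peak within 3 kb. More peaks per gene raise these counts, and per peak the promoter share was lower in the 178 genes, 13.2% beside 21.3% of all peaks. In 60 genes most peaks lay beyond 100 kb, and in 44 none did. Every peak lay beyond 100 kb for 6 genes, named after their values were seen, which were B230303A05Rik, A1bg, Mir8099-1, 4930448K20Rik, Slc10a2 and Wac. Every peak was intronic for 8 genes (Rad51b, Macrod2, Adamtsl1, Oxr1, Adk, Cdkal1, Ctnnd2 and Hecw2). Peaks lay on both sides of the TSS in 152 genes, on the upstream side alone or on the TSS in 10 and on the downstream side alone or on the TSS in 16.

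The span from the first to the last peak had a median of 413 kb and ran from 68.5 to 2014 kb. The widest spans were those of Lrrc4c, a synaptic adhesion gene (2014 kb for 15 peaks), Efnb2 and Efna5. The narrowest were those of Vmp1, an autophagy gene (10 peaks in 68.5 kb), Atp6v1g3, a proton pump subunit (10 in 69.65 kb), and 4930412B13Rik (12 in 78.3 kb). The median gap between neighbouring summits was 17.2 kb over the 178 genes, beside 15.7 kb in genes with 5 to 9 peaks. At least 5 summits fell within 50 kb in 102 genes and within 20 kb in 40. In Gm20125 the tightest 5 summits fell within 2.43 kb, in Flrt2 within 3.56 kb, in Rbms1 within 3.72 kb, in Zfp827 within 3.75 kb, in Foxp1 within 4.165 kb and in Rbms3 within 4.61 kb, while those of Acvr2a took 474 kb.

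Close neighbours bear on the counts. Another peak began or ended less than 1000 bp away from 831 of the 2338 peaks (35.5%, 33.6 to 37.5%), beside 25.95% of all peaks and 34.6% in genes with 5 to 9 peaks. When such peaks were counted once, 106 of the 178 genes still had 10 or more.

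The sequence nearest to a gene's starts, called its territory here, measures the room from which a gene could collect peaks. It had a median of 502 kb over the 178 genes, beside 274 kb in genes with 5 to 9 peaks, 145 kb in genes with 2 to 4 and 84.6 kb in genes with 1. Their RefSeq gene length had a median of 165 kb, beside 31.1 kb in genes with 1 peak. A territory over 500 kb was held by 90 of the 178 genes (50.6%) and by 557 of the 5246 genes with a peak (10.6%). Of those 557 genes, 90 (16.2%) had 10 or more peaks, beside 3.39% of all genes with a peak, and 467 had fewer. How far the length of the territory accounts for the number of peaks was not tested. With genes without a peak included, 993 genes had such a territory.

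Within their territories the 178 genes had a median of 25.2 peaks per Mb, 4.03 times the density of their own chromosome. The same medians were 21.4 per Mb and 3.64 times in genes with 5 to 9 peaks, 11.2 per Mb and 2.09 times in genes with 1, and 14.9 per Mb and 2.69 times in all genes with a peak. The count that chose the genes enters this density, so it is a description. The highest densities were those of Gm12610 (113 peaks per Mb), Gask1b, Ccdc80, Vmp1 and Irf2bp2. Ccdc80, a secreted matrix protein gene, had 10 peaks in a territory of 93.7 kb (107 per Mb), and Irf2bp2, a transcriptional co-repressor gene, had 15 in 182 kb (82.4 per Mb). The Gask1b value of 113 rests on the 2 of its 12 peaks that the combined starts left to it, in a territory of 17.8 kb.

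The lowest densities were those of A1bg, Dlgap1, Cdk6, Lrrc4c and Csmd3. None of the 13 peaks of A1bg and 2 of the 10 of Dlgap1 stayed with their gene under the combined starts, so their densities of 0 and 2.0 reflect the choice of starts. Cdk6, a cell cycle kinase, kept all 13 peaks in a territory of 3507 kb (3.71 per Mb), but 3000 kb of that is unknown sequence of the assembly. Over the 507 kb of known bases its density was 25.6 per Mb, near the median of the 178 genes, so its place among the lowest comes from the unknown bases. Lrrc4c had 3.77 and Csmd3, a large transmembrane gene, 4.23 per Mb, below the densities of their chromosomes. Over all 178 genes the combined starts returned 2235 of 2338 peaks (95.6%) to the same gene, and 156 genes kept every peak.

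**Figure D4:**
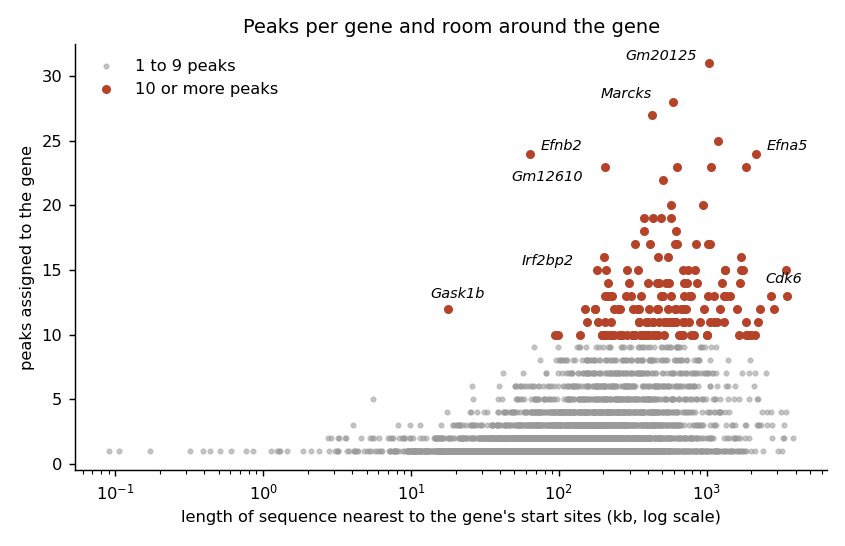
Number of assigned peaks (y) against the length of sequence nearest to the gene's starts in kb (x, log scale), 1 point per gene, with the 178 genes coloured. Many genes with long territories had few peaks, while Gm12610 and Irf2bp2 had many peaks in about 200 kb and Efnb2 and Gask1b stand to the left because the combined starts shortened their territories. Cdk6 stands to the right with 3000 kb of unknown bases in its territory.

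In strength the peaks of these genes resembled the rest of the list. Their median −log10 p was 5.56, beside 5.53 for all peaks, and the medians of the first-listed and second-listed replicate were 6.92 and 6.61 in both sets. The first-listed value was the higher one in 53.1% of their peaks (51.1 to 55.1%), beside 52.1% of all peaks. At a global IDR of 0.05 or less there were 82 of their 2338 peaks (3.51%, 2.835 to 4.333%), beside a background of 3.33%. At 0.01 or less there were 28 (1.20%), beside 0.994%. The lowest score of 48 was held by 953 peaks (40.8%), beside 41.4% of all peaks, and 3 of the 178 genes had no peak at that score. Their peaks had a median width of 656.5 bp, beside 600 bp for all peaks, and a median GC content at the summit of 42.3%, beside 43.8%.

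At least 1 peak at a global IDR of 0.05 or less was present in 69 of the 178 genes (38.8%) and in 362 of the 5068 genes with fewer peaks (7.14%). Genes with more peaks have more chances to hold one, and per peak the share was close to the background of 3.33%, so these counts are not a result about the genes. At least 2 such peaks were present in 12 of the 178 and 3 in Irf2bp2, while the gene with the most in the whole list, 4, was not among the 178. The Irf2bp2 peaks lay 39.9, 71.4 and 65.4 kb upstream. The first had a −log10 p of 18.9 in the first-listed and 16.7 in the second-listed replicate, the second had 14.9 and 19.9, and the third had 13.9 and 18.8. Which replicate was higher thus differed among the 3 peaks.

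The other 11 genes with 2 such peaks were Gm20125, Tbl1xr1, Adamts5, Zfp608, Mir6344, Cd47, Trps1, Erbb4, Gm8633, Klf6 and Ccdc80. The Tbl1xr1 peaks lay at -140.1 and -597 kb from the TSS, both upstream, with 19.9 and 14.7 in the nearer one and 13.9 and 15.7 in the farther one. Cd47, the "don't eat me" surface protein, had 18.9 and 10.9 at a promoter peak 2.39 kb from the TSS and 19.9 and 18.8 at a peak 83.8 kb downstream. Klf6, a Krüppel-like factor, had 15.85 and 10.9 at 262 kb downstream and 18.9 and 15.7 at 328 kb downstream. Ccdc80 had 12.8 and 15.7 at a peak over its TSS and 15.85 and 18.8 at a peak 54.0 kb upstream. Zfp608 had 17.9 and 20.99 at a peak 203 kb upstream and 17.9 and 13.7 at 555 kb upstream. Most of these peaks were thus distal, and the TSS peak of Ccdc80 was 1 of the exceptions.

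The 5 genes with the strongest single peaks were B230303A05Rik, Cald1, Dnajb6, Pvt1 and Prex2. Cald1 encodes caldesmon, an actin-binding regulator of contraction. Its strongest peak, in the first intron 10.8 kb from the TSS, had 24.3 in both replicates, and the next of its 12 peaks had 11.2 and 9.54. The median −log10 p of the Cald1 peaks was 4.96. A single strong peak therefore stood among weak ones in this gene.

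**Figure D5:**
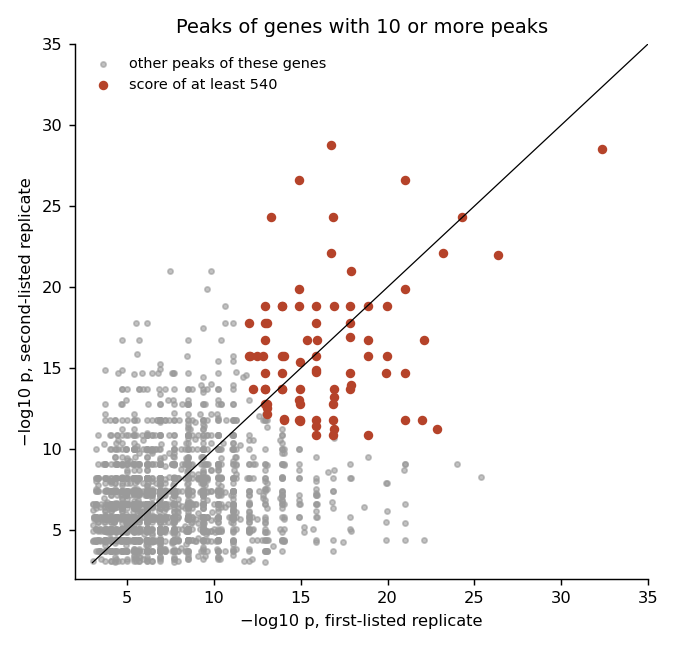
−log10 p of each of the 2338 peaks in the first-listed (x) and the second-listed replicate (y), with the line of equal values and the 82 peaks at a score of at least 540 coloured. Most peaks sit low in both replicates, around medians of 6.92 and 6.61, and some peaks are high in 1 replicate and low in the other.

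By product, 152 of the 178 genes were protein-coding, 16 were long non-coding RNA genes, 7 were microRNA genes and 3 were transcribed pseudogenes. The background for all protein-coding genes of RefSeq was 20.1% with any peak and 0.694% with 10 or more. The genes were sorted into roles by hand after their names were known, so counts by role carry no test. The gene lists counted below were chosen with earlier results of these data known, so their counts carry no test either. A share in a list above this background is therefore not a result about that list.

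Transcription factors and their nuclear partners formed the largest named role, with 28 genes and 368 peaks, 34.0% of them beyond 100 kb and 21.2% at promoters. The list of transcription factors of mesenchyme and outflow tract held 78 genes, of which 56 had a peak and 12 had 10 or more. These were Meis1 (19), Foxp1 (17), Arid5b (15), Klf4 (14), Sox11 (13), Klf6 and Hif1a (12), Zeb2, Bach2 and Glis3 (11), and Nfia and Zfpm2 (10). Klf4, known to oppose the contractile programme of SMCs, had 11 of 14 peaks beyond 100 kb and 13 upstream. Arid5b had none beyond 100 kb and 6 at promoters, and Glis3 had 3 over its starts. Zeb2, a repressor of epithelial genes, had 4 of 11 at promoters, and Sox11 had 5 of 13 beyond 100 kb.

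Of 39 chromatin and co-repressor genes, 24 had a peak and Tbl1xr1 alone had 10 or more. Of 12 genes for SRF and its partners, 9 had a peak, and Mrtfa, the actin-regulated coactivator of SRF, had 12. The Mrtfa peaks spanned 98.75 kb, 10 of them in its introns and 2 at promoters, and none lay beyond 100 kb. At the Mrtfa promoter peak 795 bp upstream of the TSS the replicates differed, with 11.7 in the first-listed and 3.09 in the second-listed. Of 12 AP-1 factor genes 4 had a peak and none had 10. Of 20 genes of the Hippo pathway and TEAD factors 12 had a peak, and Vgll3, a TEAD cofactor, had 11 peaks.

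Guidance cues, ligands and secreted modulators numbered 17 genes with 240 peaks, 47.1% of them beyond 100 kb. Of 44 ephrin, semaphorin and other guidance genes, 25 had a peak and 6 had 10 or more. Beside both ephrins these were Sema3a (15), Slit2 (13), Sema3d and Sema3e (12). Sema3a had 10 of its 15 peaks beyond 100 kb and Slit2, a ligand of Robo receptors, 7 of 13, while Sema3d had 1 of 12.

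In the Notch pathway, which patterns outflow tract smooth muscle, 8 of 17 genes had a peak and 2 had 10 or more, the ligand gene Jag1 (15) and Rbpj (13), which encodes the DNA-binding partner of Notch. Jag1 had 9 of 15 peaks beyond 100 kb over a span of 659 kb. Rbpj had none beyond 100 kb, 8 in introns, and its strongest peak, in intron 1, had 11.1 and 15.7. These 2 genes of 1 pathway thus differed in layout.

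For TGF-beta and BMP signalling, 25 of 36 genes had a peak and 2 had 10, the receptor gene Acvr2a and Ltbp1, which encodes a carrier of latent TGF-beta. The Acvr2a peaks lay up to 1420 kb away, with 9 of 10 beyond 100 kb and 9 upstream. The Ltbp1 peaks all lay within 73.1 kb of a start and 9 of 10 were intronic. In Wnt signalling 22 of 32 genes had a peak, and Rspo2 (14), a secreted amplifier, and Fzd8 (11), a receptor, had 10 or more. Of 41 growth factor and receptor genes 33 had a peak and 4 had 10 or more, Erbb4 (14), Nrg1 and Met (13) and Kitl (10). Erbb4 is a receptor for Nrg1, and it had 13 of 14 peaks beyond 100 kb, Nrg1 5 of 13 and Met none of 13.

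Matrix proteins, proteoglycans and matrix proteases numbered 13 genes with 176 peaks. Of 40 extracellular matrix genes 32 had a peak and 5 had 10 or more, Adamts5 (22), Col8a1 (14), Col5a2 (13), and Col3a1 and Lama2 (12). Col3a1 and Col5a2, fibrillar collagen genes that lie side by side on chromosome 1, together had 25 peaks in 586 kb. Of the Col3a1 peaks 9 were intergenic and none intronic, and of the Col8a1 peaks 10 of 14 were intronic.

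Receptors and receptor phosphatases had the highest share beyond 100 kb of the coding roles described here (13 genes, 54.4%). Adhesion genes numbered 9, with 46.7% beyond 100 kb. Of 34 listed integrin, cadherin and adhesion genes 23 had a peak and 3 had 10 or more, Pcdh9 (12), Pcdh18 (11) and Ptprk (10). Of 30 RNA-binding and splicing regulators 19 had a peak and 4 had 10 or more, Mbnl1 (27), Celf2 and Rbms3 (15) and Rbms1 (13). All 13 Rbms1 peaks lay within 26.35 kb of a start.

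Of 10 listed smooth muscle markers 3 had a peak, of 7 endothelial markers 4 and of 6 cardiomyocyte markers 1. None had 10 or more, and with a background of 0.694% of protein-coding genes so short a list would seldom hold one. Cald1, which also serves contraction and had 12 peaks, was not on the marker list. It is 1 gene named with its count known, so it does not alter the count of the listed markers. The assay measured binding and no expression, so the labelled cell type could not be checked from these markers.

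The 26 non-coding genes and pseudogenes had 380 peaks, 55.8% of them beyond 100 kb and 6.32% at promoters. Of their 93 intronic peaks 40 lay in an intron of a transcript not given to them, beside 93 of 859 for the coding genes. The mature sequences of the 7 microRNA genes follow, from RefSeq (GRCm38.p6), with the seed (bases 2 to 8) in capitals. They are shown because a peak count near so short a gene depends on the genes around it.
mmu-miR-181a-1-3p: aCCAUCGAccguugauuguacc
mmu-miR-181a-5p: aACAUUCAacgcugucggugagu
mmu-miR-21c: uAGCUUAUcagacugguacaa
mmu-miR-30a-3p: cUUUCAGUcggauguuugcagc
mmu-miR-30a-5p: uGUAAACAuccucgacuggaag
mmu-miR-3966: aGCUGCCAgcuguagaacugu
mmu-miR-5118: aAGGUUAGgccagccuggu
mmu-miR-6344: gUUUUCCUacuguuucccuuuu
mmu-miR-8099: cCAAGGCGugggaaagguugu
No seed was shared between any of these mature forms. Mir6344 had 17 peaks, all intergenic and 16 upstream, and none came within 18.8 kb of its start. Mir181a-1 had 13 peaks, Mir5118 12, Mir8099-1 11, and Mir21c, Mir30a and Mir3966 10 each. None of the 10 Mir30a peaks lay beyond 100 kb and 2 were at the promoter, while 7 of 10 lay beyond 100 kb for Mir21c and all 11 for Mir8099-1. RefSeq places Mir8099-1 on chromosome 3 and the deposited annotation on chromosome 12, so the genomic place of that gene was not settled.

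The genes were unevenly spread over the chromosomes. Chromosome 15 held 22 of them, 8.53% of its 258 genes with a peak, and they took 279 of its 863 peaks (32.3%). It was also the chromosome with most peaks for its length (8.295 per Mb, beside 0.544 on the X chromosome). The X chromosome held 93 peaks in 80 genes and none of the 178, and chromosome 19 held 2. Genes of the 178 were next to each other among genes with a peak in 24 runs that took in 52 of them. No such count was made for other genes, so this one is not a result about clustering. The longest run was Zfpm2, 4930555K19Rik, Oxr1, Angpt1 and Rspo2, at chr15:40618519-43180086, with 57 peaks over 2562 kb (22.3 per Mb). Of the 11 peaks of 4930555K19Rik, 10 lay in introns of Zfpm2, so the run depends in part on the assignment. Zfpm2 is a cofactor of GATA factors in heart development, Angpt1 a ligand of the Tie2 receptor and Oxr1 an oxidation resistance gene with all 12 peaks in its introns. A run of 3, Zeb2, 1700019E08Rik and Acvr2a, held 44 peaks over 3796 kb, and Sema3d and Sema3a held 27 over 1329 kb.

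Limits on reproducibility lowered the number of genes. With peaks at a global IDR of 0.5 or less, 10 genes still had 10 or more peaks, Adamts5, Babam2, Efnb2, Ext1, Fat1, Gm12610, Gm20125, Mbnl1, Pvt1 and Tbl1xr1. Without the peaks at the lowest score 43 did. Babam2, Ext1 and Mbnl1 were the 3 genes that met the rule under each of the 9 alternative ways of counting peaks that left any gene, while no gene met it at a global IDR of at most 0.05. Babam2, a subunit of deubiquitinase complexes, had 15 of its 17 peaks in introns and the highest median −log10 p of the genes with 17 or more peaks, 7.415, and Ext1 had 12 of 19 in introns.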

How the data were processed

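ChIP-seq libraries of FLAG-tagged PRDM6 and their inputs (2 each) were described by 1 peak list and 1 annotation of it. The authors aligned reads to mm10 with BWA, kept a mapping quality of at least 13, called peaks in each replicate against its own input with MACS2 at a p limit of 0.001, and matched them between replicates by IDR. The deposited −log10 values are MACS2 p-values per replicate, the smaller of both for the matched peak, and IDR values. The deposited score is the scaled IDR. Columns for signal and q-value held a placeholder of -1, and in all 13977 rows the q-value column of the annotation repeated the second-listed −log10 p. The annotation tool is not given in the sources used here. Distances were taken as deposited, from a transcript start of the assigned gene. Depth is not given by these files, so intervals (95% Wilson, over peaks) cover counting error only, and peaks are not replicates.

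Rows were counted per gene ID. Territories used starts of GENCODE mouse release 21 together with the deposited starts, with only peaks nearest to that gene in the density. Motifs were searched 100 bp on each side of summits in GRCm38. All 178 genes matched RefSeq. pysam 0.24.0, pandas 2.3.3, NumPy 2.4.6, SciPy 1.17.1 and matplotlib 3.10.9 were used under Python 3.11.15, and territory lengths and motif search were tested on simulated data. The genes named were the 20 with most peaks (with ties), the 5 with most peaks at a global IDR of 0.05 or less (with ties), the 5 highest and 5 lowest densities, the 3 widest and 3 narrowest spans, the 5 strongest peaks, list members and the longest run, and names outside this rule were chosen after their values were seen. Members and lists were chosen with earlier results of these data known. The result of 1 gene list is not reported here. No test was made, since the rule used the readout. The alternatives were other limits on the number, the IDR, the score, the distance and each replicate's −log10 p, merged neighbours, other gene starts and other motif windows.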

Additional observations from a re-analysis of the deposited data

How the results depend on the processing

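No paired analysis was possible because the list holds only peaks matched between both immunoprecipitations and no Input values, so replicates enter as limits on their −log10 p. Counting again under each alternative moved the number of genes by over 1.5 times in 8 of 9 cases, from 10 to 302 genes beside 178, and a global IDR of at most 0.05 left no gene with 10 peaks. A limit of 8 peaks gave 302 genes, 34.7% of peaks beyond 100 kb and a median span of 327 kb, and a limit of 12 gave 99 genes, 41.8% and 483 kb. A global IDR of at most 0.5 gave 10 genes, 47.4% beyond 100 kb, 6.14% at promoters, 8.77% at a global IDR of 0.05 or less, a span of 582 kb and 18.1 peaks per Mb. Without the lowest score there were 43 genes, 45.0% beyond 100 kb, 6.71% at the IDR limit and a span of 468 kb. Peaks within 100 kb left 65 genes, 20.6% at promoters, 201 kb and 31.9 per Mb. Merging peaks less than 1000 bp apart left 106 genes, 45.2% beyond 100 kb, 9.78% at promoters, 4.39% at the IDR limit, 486 kb and 18.7 per Mb. A −log10 p of at least 5 in the first-listed replicate left 96 genes, 41.3%, 4.68% and 21.1 per Mb, and in the second-listed 91 genes, 43.8%, 4.58%, 468 kb and 20.3 per Mb, for the share beyond 100 kb, the share at the IDR limit, the span where given and the density. Settings that keep fewer peaks can only lower the number of genes, and the cause of the other shifts was not tested. Nearest GENCODE starts gave 208 genes, of which 149 were among the 178 (83.7% of the 178 and 71.6% of the 208). AP-1 letters lay at 7.23% of summits within 50 bp and 23.95% within 200 bp, and starts of protein-coding genes alone gave 19.6 peaks per Mb. The share beyond 100 kb has no value when peaks are limited to 100 kb. Territories over known bases only, an alternative chosen after seeing the data, gave 25.4 peaks per Mb.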
